A study of Mus musculus with 32 samples.

Results

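The genes described here are 10 members of the Notch pathway, chosen by symbol among the 55401 gene identifiers counted in each library: the receptors Notch1, Notch2 and Notch3, the ligands Jag1, Jag2 and Dll1, the nuclear factor Rbpj and the target genes Hes1, Hey1 and Nrarp. Each symbol matched 1 identifier, and 9 of the 10 reached at least 1 cpm (counts scaled to a common library size) in at least 1 mouse and were tested, Hey1 being the exception. RNA was sequenced from dorsal epidermis of 32 mice, 1 library per mouse, in 8 groups of 4 defined by sex, genotype and treatment. All mice came from the hairless B6.129-SKH1-Hr(hr) cross of SKH-1 with Sv129 and C57BL6/J animals and were 10 to 14 weeks old. UV mice received a single sub-erythematous dose of 120 mJ/cm2 and were sampled at 24 h. Control mice, labelled as time 0, were handled in the same way without irradiation. Mice labelled KO (-/-) are given by the series as littermates deficient for Ppard, the gene of the nuclear receptor PPARβ/δ, and the WT mice are labelled +/+. The epidermis was lifted off the dermis with ammonium thiocyanate, so the libraries hold keratinocytes together with the immune and other cells of that layer.

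Notch receptors are membrane proteins that bind Jagged or Delta-like ligands on a neighbouring cell. Binding leads to cleavage of the receptor by an ADAM protease and then by γ-secretase, and the released intracellular domain enters the nucleus, where it joins the DNA-binding protein RBPJ and a Mastermind coactivator to switch on genes such as Hes1, Hey1 and Nrarp. In epidermis the pathway is known for promoting the commitment of basal keratinocytes to differentiation and for restraining skin tumours.

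24 h after UV, the ligand gene Dll1 rose about 3-fold to 4-fold, the target gene Nrarp and the receptor gene Notch1 rose, and the receptor gene Notch2 fell, in both genotypes. Jag1 also rose in both genotypes, though its call in mice labelled KO was not stable. Jag2 fell in WT mice, and Notch3 fell in mice labelled KO. For neither gene did the difference in response between genotypes pass the adjustment over all genes in edgeR. The change of Hes1, the best-known target, was smaller than its spread between mice, and Hey1 was close to undetected in every group.

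Levels were compared between members per kilobase of annotated exon, because longer transcripts give more reads. In WT control mice the order of mean cpm per kb was Nrarp (51.04 ± 5.79, SD, n = 8), Notch2 (35.5 ± 4.37), Notch3 (32.1 ± 4.41), Jag1 (20.1 ± 3.76), Hes1 (17.02 ± 1.90), Jag2 (13.5 ± 4.26), Notch1 (12.6 ± 0.993), Dll1 (3.43 ± 0.915), Rbpj (2.25 ± 0.557) and Hey1 (0.0288 ± 0.0203). Between neighbours in that order, the ranges of the 8 mice overlapped for Notch2 and Notch3, for Jag1, Hes1, Jag2 and Notch1, and for Dll1 and Rbpj. All 8 Nrarp values, of at least 44.7, were above the highest Notch2 value of 42.3, and the lowest Notch3 value of 26.8 was above the highest Jag1 value of 26.2. The exons counted for Notch1 and Rbpj add up to 14232 and 12750 bases over all annotated transcripts. This lowers their levels per kilobase where the shorter transcripts prevail. Nrarp, which encodes an ankyrin-repeat protein that binds the intracellular Notch complex and dampens it, was thus the most abundant member per length. After UV it stayed first, at 94.4 ± 13.3 cpm per kb in WT mice and 96.0 ± 10.6 in mice labelled KO (n = 8 each), and Dll1 moved to 11.3 ± 1.55 and 11.3 ± 2.35.

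**Figure D1:**
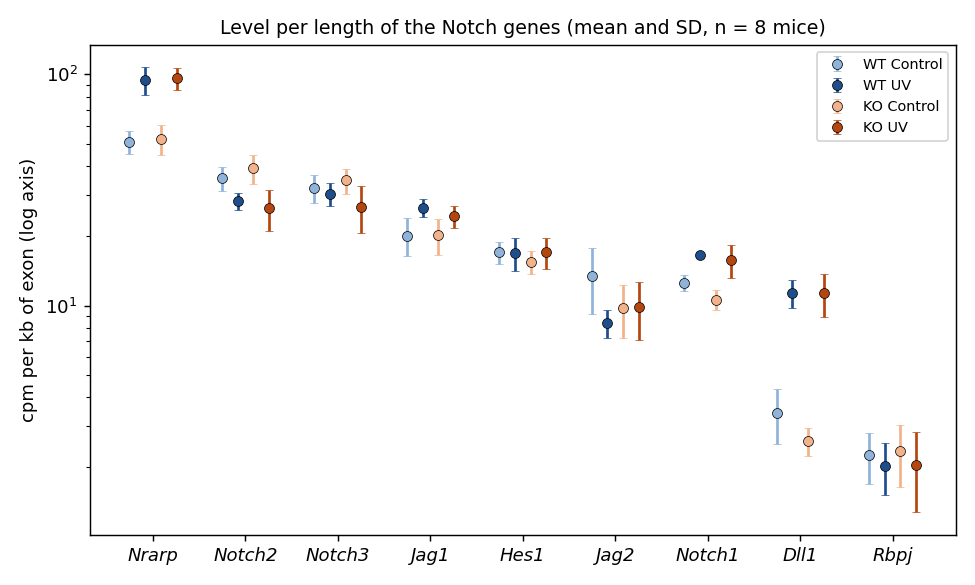
Mean level of the 9 tested members in cpm per kilobase of exon on a log axis, with SD, over 8 mice in each combination of genotype and treatment. Nrarp is highest in all 4 groups, Rbpj is lowest, and Dll1 shows the widest step between control and UV.

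The members lie on chromosomes 2, 3, 5, 12, 16 and 17 (GRCm38, GENCODE M21 gene bounds). Notch1 is at chr2:26457903-26516663 on the minus strand, Notch2 at chr3:98013527-98150361 on the plus strand and Notch3 at chr17:32120820-32166852 on the minus strand. The ligand genes are all on minus strands, Jag1 at chr2:137081456-137116644, Jag2 at chr12:112907819-112929776 and Dll1 at chr17:15367354-15376872. Rbpj is at chr5:53466152-53657362 and Hes1 at chr16:30064384-30067796, both on the plus strand, Hey1 at chr3:8663359-8667256 on the minus strand and Nrarp at chr2:25180758-25183339 on the plus strand. Genes annotated over the members on either strand carried few reads. The most were 571 over all mice for 0610009E02Rik, opposite Notch1, beside 181142 for Notch1 itself.

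Sequences are shown for the starts of the members with the largest changes, Dll1 and Nrarp, and of Lfng, the pathway gene whose UV response differed most clearly between genotypes. They are the 250 bases before the start of the gene in RefSeq (GRCm38.p6), written 5′ to 3′ on the strand of the gene. Capitals mark TGGGAA, the core letters bound by RBPJ, read on both strands (as TTCCCA on the other), and CACGTG, the E-box whose letters are the same on both strands and which many basic helix-loop-helix proteins bind, a family to which HES and HEY proteins belong.
Nrarp, chr2:25180508-25180757, plus strand: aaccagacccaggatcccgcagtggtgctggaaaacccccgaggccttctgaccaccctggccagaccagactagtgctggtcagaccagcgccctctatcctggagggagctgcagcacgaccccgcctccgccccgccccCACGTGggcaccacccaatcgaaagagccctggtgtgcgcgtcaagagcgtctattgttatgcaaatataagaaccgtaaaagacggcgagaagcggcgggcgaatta
Dll1, chr17:15376933-15377182, minus strand: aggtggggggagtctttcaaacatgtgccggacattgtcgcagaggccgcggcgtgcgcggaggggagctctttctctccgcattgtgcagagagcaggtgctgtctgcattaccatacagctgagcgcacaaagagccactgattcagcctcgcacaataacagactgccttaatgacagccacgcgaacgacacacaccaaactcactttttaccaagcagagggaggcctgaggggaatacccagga
Lfng, chr5:140607091-140607340, plus strand: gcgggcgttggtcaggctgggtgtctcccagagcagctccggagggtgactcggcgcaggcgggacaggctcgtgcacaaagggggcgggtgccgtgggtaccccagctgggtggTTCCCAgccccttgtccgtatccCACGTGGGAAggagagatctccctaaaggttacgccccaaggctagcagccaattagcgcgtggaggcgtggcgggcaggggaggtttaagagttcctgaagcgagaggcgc

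The Nrarp window held CACGTG 108 bases before the start and no TGGGAA. The Lfng window held TTCCCA 135 bases before the start, and further on CACGTG with TGGGAA overlapping its end. The Dll1 window shown, 1 of 2 listed, held neither. RefSeq windows were at hand for 8 of the 10 members, Hes1 and Hey1 being the others. TGGGAA occurred in a window of 1 member, Rbpj, and CACGTG in that of 1 member, Nrarp. Over all 32851 windows, 21.6% held TGGGAA and 6.02% held CACGTG. These matches describe letters and show neither binding nor its absence.

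Ppard itself was read first, because it checks the labels. Ppard cpm ranged from 87.3 to 105 (median 94.0) in WT controls and from 70.3 to 88.9 (median 77.5) in controls labelled KO, and from 252 to 326 (median 279) in WT UV mice against 175 to 239 (median 219) in UV mice labelled KO. Ppard transcripts were thus counted in every mouse labelled KO, at levels lower by 0.26 on the log2 scale in controls (edgeR quasi-likelihood test, adjusted p = 0.156) and by 0.42 after UV (adjusted p = 0.00114). Counts over all exons of a gene do not test a deleted stretch, so the label was neither borne out nor contradicted, and "labelled KO" is used throughout. Notch3 and Dll1 lie on the chromosome of Ppard, 3.82 Mb and 12.9 Mb from it. The libraries counted 22919428 to 40653581 reads on genes per mouse (median 27600228).

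Marker genes of other cell types moved with UV, and their part in the results below was not tested. In bulk epidermis, fewer cells of a type and less RNA per cell cannot be told apart. The 7 suprabasal keratinocyte markers summed to 68037–78401 cpm in WT controls and 14953–28220 cpm in WT UV mice, and 6 of the 7 fell. The 6 basal markers summed to 7352–16431 cpm and 17352–29950 cpm, with 3 rising and 1 falling. T cell markers mostly fell (9 of 10, with 1 rising), as did Langerhans cell markers (5 of 7, with 1 rising). The summed myeloid and neutrophil markers went from 45.8–130 cpm to 400–793 cpm, with 4 of the 7 tested rising and 0 falling. Of these markers S100a8 had the highest mean over all mice, 209 cpm, and Ly6g had no read in 25 mice. The same sums in UV mice labelled KO were 9362–33433 cpm for suprabasal and 16957–29491 cpm for basal markers. Of 12 p53 target genes, 10 rose and 1 fell in WT mice, and 11 rose and 1 fell in mice labelled KO. The library of the UV female labelled KO with tag 54F stood apart, with dermal fibroblast markers summing to 1982 cpm where the next highest UV mouse labelled KO had 30.0, and all 6 of these genes were higher after UV in mice labelled KO than in WT mice. Without that library the members called over both sexes numbered as before in both genotypes, while those called in females labelled KO went from 5 to 4. The pathway genes whose calls changed are given below with and without it.

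Most genes responded to UV, which sets the scale for the members. Among the 15546 genes tested, 34.5% rose and 36.5% fell in WT mice, and 37.3% rose and 33.5% fell in mice labelled KO (edgeR quasi-likelihood test, Benjamini-Hochberg adjusted p under 0.05). Of the 9 members tested, 4 rose and 2 fell in each genotype. The median log2 fold change over the 9 members was -0.02 in WT and 0.14 in mice labelled KO, beside -0.01 and 0.09 over all genes tested. The 8 UV mice did not overlap the 8 controls for 43.4% of all genes in WT and 35.1% in mice labelled KO. This held for 3 of the 9 members in WT (Notch1, Dll1 and Nrarp) and for 2 in mice labelled KO (Dll1 and Nrarp), so changing with UV did not set the members apart from other genes. What follows are the values behind those counts.

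**Figure D2:**
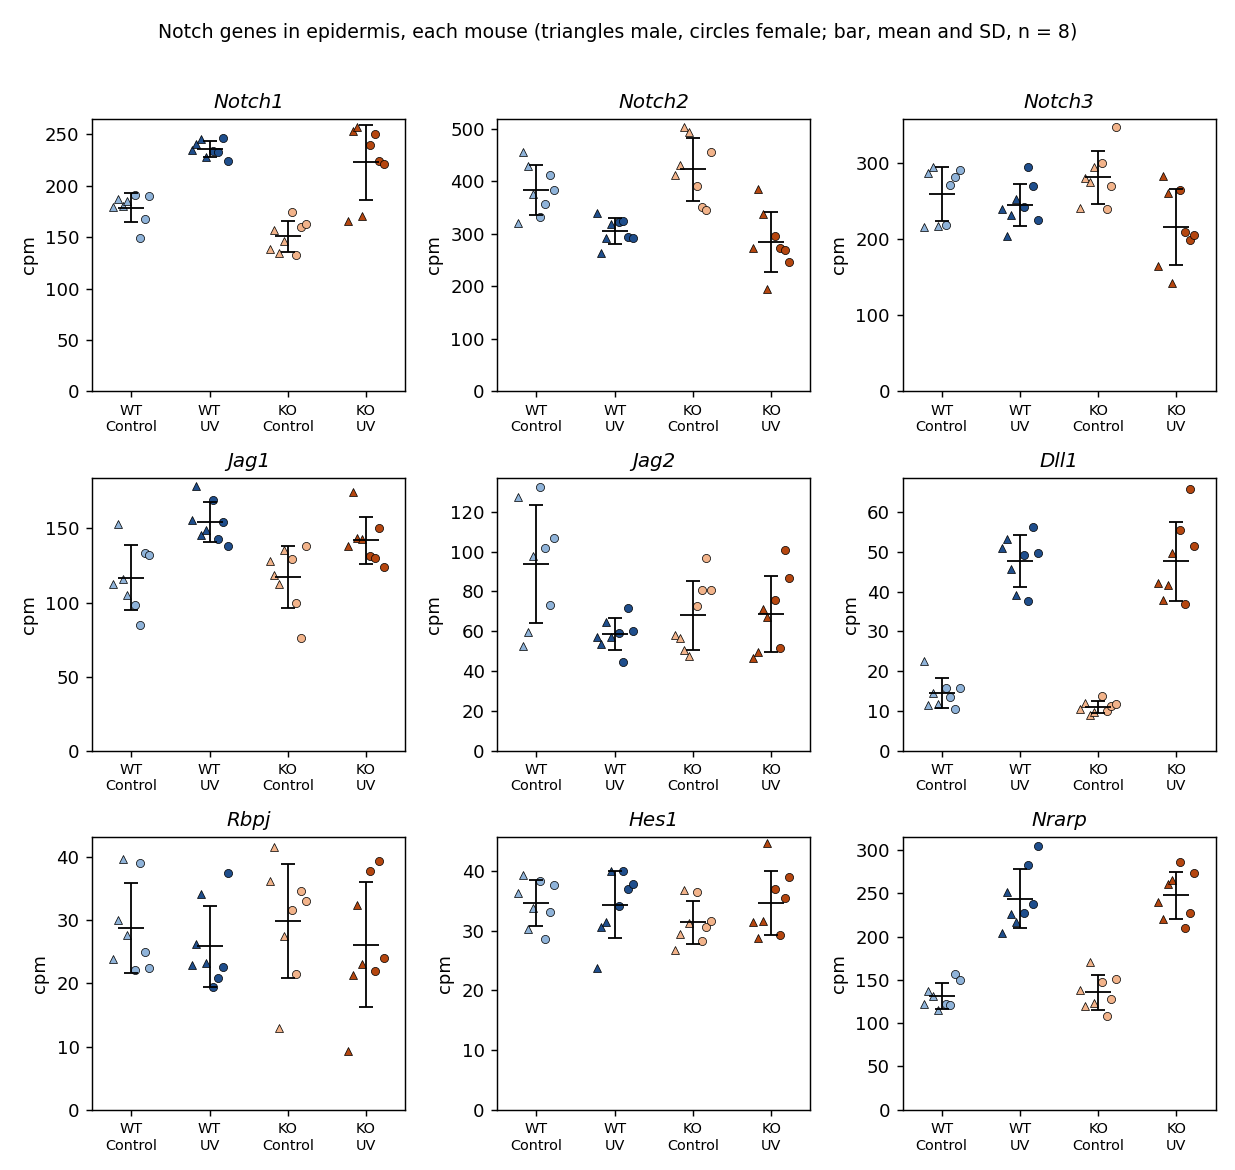
Level in cpm of the 9 tested members in each of the 32 mice, from zero, by genotype and treatment, with triangles for males, circles for females and bars for the mean and SD of 8 mice. For Dll1 and Nrarp the UV mice lie above every control of their genotype, and for Hes1 and Rbpj the groups overlap.

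The first receptor, Notch1, restrains proliferation in keratinocytes and is known as a tumour suppressor in skin. In WT controls Notch1 ranged from 149 to 191 cpm (median 183), and in WT UV mice from 224 to 246 cpm (median 234). Every WT UV mouse was above every WT control, and Notch1 rose by 0.40 on the log2 scale (SE 0.079, adjusted p = 5.39e-05). Among mice labelled KO, Notch1 ranged from 132 to 175 cpm (median 152) in controls and from 166 to 257 cpm (median 232) after UV, a rise of 0.56 (SE 0.079, adjusted p = 3.94e-07). Here the groups overlapped, because UV males 58M and 72M had 166 and 171 cpm, beside 253 and 257 cpm in UV males 59M and 61M. The 4 UV females labelled KO had 239, 251, 224 and 221 cpm, all above the controls.

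Notch2 was the receptor with the highest mean level per kilobase in controls. In cpm it ranged from 321 to 456 cpm (median 379) in WT controls and from 263 to 340 cpm (median 305) after UV. The groups overlapped at their edges, and Notch2 fell by 0.33 on the log2 scale (SE 0.10, adjusted p = 0.0053). The mice labelled KO went from 346–503 cpm (median 420) to 194–386 cpm (median 272), and Notch2 fell by 0.57 (SE 0.10, adjusted p = 1.57e-05). Notch1 and Notch2 therefore changed in opposite directions in both genotypes.

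Notch3, a receptor which in skin is expressed in suprabasal keratinocytes and in vascular mural cells, gave a less even picture. In WT mice it ranged from 217 to 295 cpm (median 277) in controls and from 205 to 296 cpm (median 241) after UV, with full overlap and a log2 fold change of -0.08 (SE 0.12, 95% interval -0.33 to 0.16, adjusted p = 0.538). In mice labelled KO it went from 240–348 cpm (median 278) to 142–283 cpm (median 208) and fell by 0.38 (SE 0.12, adjusted p = 0.00561). The lowest of these were again UV males 72M and 58M, at 142 and 165 cpm. The difference between the genotypes' responses was -0.29 (95% interval -0.64 to 0.05, adjusted p = 0.333), so a different response was not shown. Mural and smooth muscle markers were low and uneven, summing to 1.88–57.3 cpm in WT controls and 2.34–111 cpm in WT UV mice. With the KO label the sums were 1.23–166 cpm in controls and 2.18–119 cpm after UV. The high sums came mostly from Des, which had a mean of 29.3 cpm over all mice and reached 156 cpm. No other gene of the list exceeded 12.4 cpm in any mouse. Rgs5 had no read in 18 mice and Myh11 none in 22. These sums therefore say little about mural cells, whose part in the Notch3 values was not tested.

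Among the ligands, Dll1, a Delta-like ligand which in epidermis is known from basal keratinocytes, changed most of all members. In WT controls the males 43M, 54M, 56M and 69M had 22.6, 11.3, 14.4 and 11.7 cpm, and the 4 females had 15.8, 13.5, 10.6 and 15.8 cpm. After UV the WT males had 50.9, 53.1, 45.6 and 39.1 cpm and the WT females 49.1, 37.6, 56.3 and 49.8 cpm. The lowest UV mouse was above the highest control, and Dll1 rose by 1.72 on the log2 scale (SE 0.14, 3.30-fold, adjusted p = 7.54e-12). In mice labelled KO the controls ranged from 9.01 to 13.8 cpm (median 10.8) and the UV mice from 36.9 to 65.7 cpm (median 45.9), a rise of 2.11 (SE 0.14, 4.32-fold, adjusted p = 1.87e-13). After UV its mean level was 47.7 ± 6.55 cpm in WT and 47.6 ± 9.90 cpm in mice labelled KO (SD, n = 8 each). The controls were at 14.5 ± 3.86 and 10.98 ± 1.53 cpm. The responses differed by 0.39 (95% interval 0.0031 to 0.77), which did not pass the adjustment over all genes (edgeR, adjusted p = 0.252).

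Jag1, a Jagged ligand of keratinocytes, went in WT mice from 84.5–153 cpm (median 114) to 138–179 cpm (median 152). The groups overlapped through WT control male 54M, at 153 cpm, and Jag1 rose by 0.40 on the log2 scale (SE 0.11, adjusted p = 0.00163). With the KO label it went from 76.3–138 cpm (median 123) to 124–175 cpm (median 141), a rise of 0.28 (SE 0.11, adjusted p = 0.0246). That call was not stable. Without any 1 of the mice 52M or 60F (controls) or 59M or 66F (UV), the rise was 0.22, 0.25, 0.23 and 0.24 and no longer passed, with adjusted p up to 0.0921.

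Jag2, the other Jagged ligand, fell in WT mice. The WT control males had 127, 52.7, 59.5 and 97.6 cpm and the control females 133, 102, 73.1 and 107 cpm. After UV the WT males had 56.9, 53.5, 64.8 and 57.02 cpm and the females 59.03, 44.6, 71.6 and 60.3 cpm. The WT controls were thus widely spread, and the UV mice sat at the lower end of that spread. Jag2 fell by 0.68 on the log2 scale (SE 0.16, adjusted p = 0.000414). The control males labelled KO had 57.9, 56.4, 50.7 and 47.7 cpm and the control females 72.5, 80.6, 96.8 and 80.6 cpm, while UV males had 46.3, 49.7, 70.9 and 66.9 cpm and UV females 75.9, 51.6, 101 and 86.6 cpm. Control and UV mice labelled KO overlapped throughout, with a log2 fold change of 0.03 (SE 0.16, 95% interval -0.29 to 0.36, adjusted p = 0.859). The responses of Jag2 differed between genotypes by 0.71 (SE 0.22, 95% interval 0.25 to 1.17), with an adjusted p of 0.1 in edgeR over all genes, so the difference did not pass. With DESeq2 it did (0.67, adjusted p = 0.0456).

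**Figure D3:**
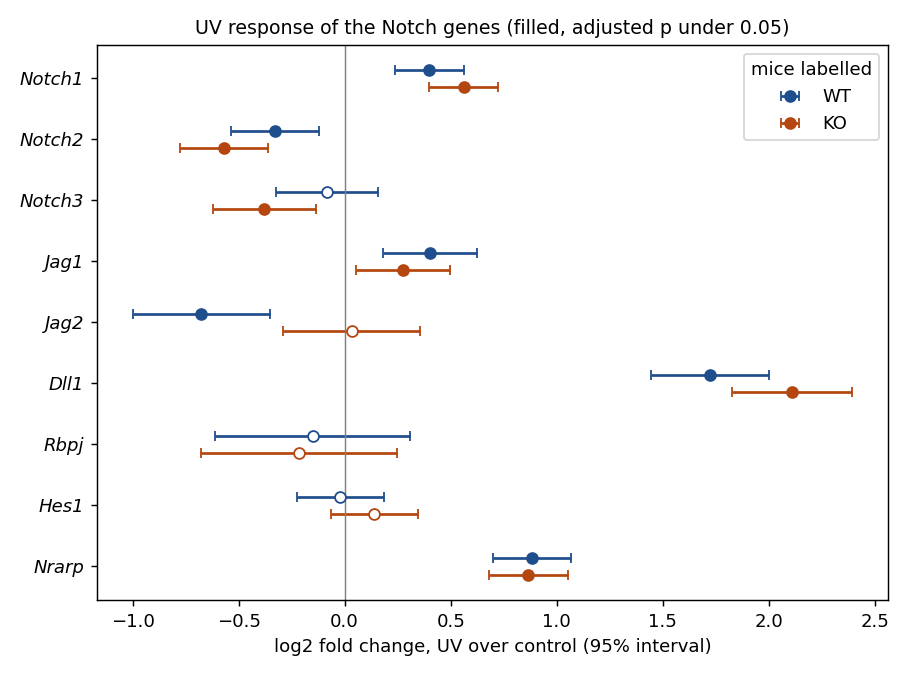
Log2 fold change of UV over control mice with its 95% interval for the 9 tested members in WT mice and in mice labelled KO, 16 mice each, filled where the adjusted p was under 0.05. Dll1 and Nrarp lie farthest above zero in both genotypes, and Jag2 shows the widest separation between them.

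Rbpj, which encodes the DNA-binding partner of the cleaved receptor, had the largest standard error of the UV response among the tested members (0.22 in WT and 0.23 in mice labelled KO). It ranged from 22.1 to 39.7 cpm (median 26.3) in WT controls, 19.5 to 37.4 cpm (median 23.1) in WT UV mice, 13.0 to 41.5 cpm (median 32.3) in controls labelled KO and 9.28 to 39.3 cpm (median 23.5) in UV mice labelled KO. All 4 groups overlapped, with log2 fold changes of -0.15 (95% interval -0.61 to 0.31, adjusted p = 0.567) in WT and -0.21 (95% interval -0.68 to 0.25, adjusted p = 0.405) in mice labelled KO. Both intervals include falls of the size seen for Notch2 in the same genotype.

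The spread of Rbpj went with the reads given to Rbpj-ps3, annotated as a processed pseudogene elsewhere in the genome. Such copies can take reads from their parent gene, so the Rbpj counts are uncertain, and how many reads the pair shared was not measured. The 12 mice with 0 to 4 Rbpj-ps3 reads had 31.6 to 41.5 cpm of Rbpj (median 36.8). The 20 mice with 26 to 200 such reads had 9.28 to 30.1 cpm of Rbpj (median 22.7). Rbpj-ps3 itself was highest in UV female 54F labelled KO, at 5.80 cpm. No mouse fell between these sets, whose limit was chosen after the values were seen. The first set held 2 WT controls, 2 WT UV mice, 5 controls labelled KO and 3 UV mice labelled KO. Its part in the Rbpj comparison was not tested.

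**Figure D4:**
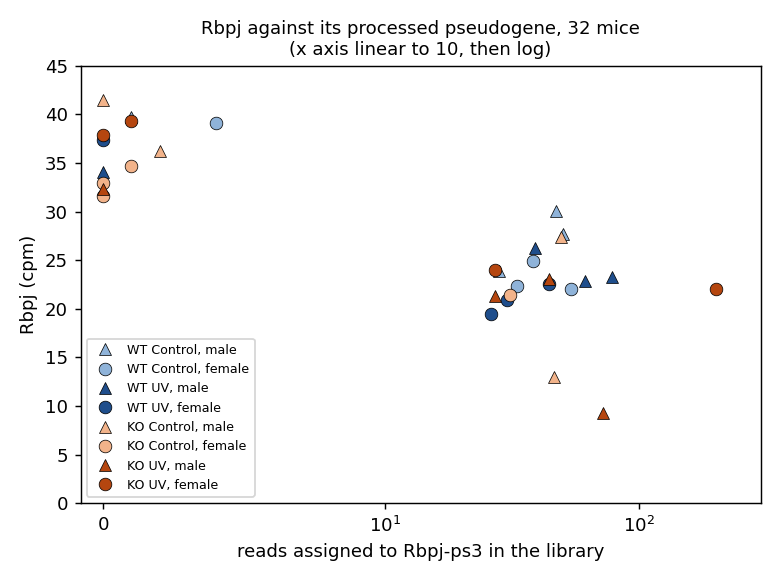
Rbpj level in cpm against the number of reads given to the processed pseudogene Rbpj-ps3 in each of the 32 libraries, by group and sex. Mice with at most 4 pseudogene reads lie between 31.6 and 41.5 cpm, above the 20 mice with at least 26.

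Of the target genes, Nrarp rose in both genotypes. In WT controls the males had 122, 137, 131 and 115 cpm and the females 122, 121, 157 and 150 cpm, and after UV the males had 204, 251, 226 and 217 cpm and the females 227, 282, 238 and 305 cpm. No UV mouse overlapped a control, and Nrarp rose by 0.88 on the log2 scale (SE 0.090, 1.85-fold, adjusted p = 1.29e-09). The mice labelled KO went from 109–171 cpm (median 133) to 210–286 cpm (median 250), a rise of 0.87 (SE 0.090, 1.82-fold, adjusted p = 1.97e-09), again without overlap. The difference between the responses was -0.02 (95% interval -0.28 to 0.24).

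Hes1, a transcriptional repressor and a direct Notch target in suprabasal keratinocytes, ranged from 28.6 to 39.2 cpm (median 35.1) in WT controls and from 23.8 to 40.0 cpm (median 35.5) in WT UV mice. In mice labelled KO it ranged from 26.7 to 36.8 cpm (median 31.0) in controls and from 28.8 to 44.6 cpm (median 33.5) after UV. The groups overlapped, with log2 fold changes of -0.02 (95% interval -0.23 to 0.19, adjusted p = 0.872) and 0.14 (95% interval -0.07 to 0.35, adjusted p = 0.218). The upper bounds of both intervals were below the rise of Nrarp in the same mice. The sign of the WT value depended on the normalization, so no direction is given.

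Hey1, a repressor related to Hes1, had 0 to 13 reads per library. The 8 mice of each group together gave 21 reads in WT controls, 9 in WT UV mice, 41 in controls labelled KO and 16 in UV mice labelled KO. The highest level was 0.468 cpm, in a control female labelled KO, and 11 of the 32 libraries had no read. A count of 0 still allows up to 3 reads in a library. Hey1 stayed below the limit of 1 cpm and was not tested.

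No difference of a member between genotypes passed the adjustment. Between genotypes, 0.206% of all genes differed in controls, 3.31% after UV, and 0.765% in their UV response, and 0 of the 9 members did in each of the 3 comparisons (edgeR). At an unadjusted p under 0.05 there were 3 members in controls, 0 after UV and 2 for the response, Jag2 and Dll1, where 8.52%, 20.1% and 19.6% of all genes reached it. DESeq2 called 1 member for the response, Jag2, and 0 in the other comparisons. The 3 members in controls had lower values in mice labelled KO. The log2 differences were -0.24 for Notch1 (SE 0.079, edgeR adjusted p = 0.306), -0.50 for Jag2 (SE 0.16, adjusted p = 0.306) and -0.40 for Dll1 (SE 0.13, adjusted p = 0.357). These controls enter both the control comparison and the responses, so their values are not independent of the response differences above.

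Sex was compared because the study concerns sex differences in the response to UV. Within 4 mice per group, the members called were 6 of 9 in WT males, 5 in WT females, 4 in males labelled KO and 5 in females labelled KO, where 60.9%, 61.3%, 61.7% and 60.7% of all genes were called. Dll1 rose by 1.65 and 1.79 on the log2 scale in WT males and females, and by 2.06 and 2.17 in males and females labelled KO. Nrarp rose by 0.83, 0.94, 0.84 and 0.90 in the same order. Jag2 fell by 0.54 in WT males and by 0.81 in WT females. For the difference between the sexes' responses, 0% of all genes and 0 of 9 members passed in either genotype (edgeR), and 0 members had an unadjusted p under 0.05 in either, beside 419 genes (2.7%) in WT and 1482 (9.53%) in mice labelled KO. DESeq2 called 3 and 35 genes and 0 members. Without WT UV male 38M, 3 members were called in WT males. With each mouse left out in turn, the count ranged from 3 to 6 in WT males, 4 to 6 in WT females, 4 to 5 in males labelled KO and 4 to 5 in females labelled KO.

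The remaining pathway was read through 65 other genes, listed by role, of which 58 were tested. In WT mice 11 rose and 33 fell, with a median log2 fold change of -0.34, and in mice labelled KO 13 rose and 30 fell, with a median of -0.20, where the medians over all genes tested were -0.01 and 0.09. Of all genes tested, 34.5% rose and 36.5% fell in WT mice, and 37.3% rose and 33.5% fell in mice labelled KO. The counts by role below stand beside these same shares. The genes described by name are the largest rise and the largest fall in WT of each role, and those called between genotypes. Maml3 is added beside the other Mastermind genes.

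Among other receptors and ligands, 3 of 5 were tested. Dll3, a Delta-like protein that does not activate Notch in neighbouring cells, was at 0 to 0.119 cpm in WT controls and 0.563 to 2.07 cpm in WT UV mice, a rise of 5.42 on the log2 scale (SE 0.75, adjusted p = 2.87e-07) that rests on 7 reads in all 8 controls. It rose by 4.76 in mice labelled KO (adjusted p = 1.28e-06), also from few reads, going from 0–0.212 cpm to 0.229–1.57 cpm. Only UV mice reached the limit of 1 cpm. Dll3 thus entered the test through the mice where it was high, so its calls are not independent of that limit. Dlk2, a non-canonical ligand, fell by 0.51 in WT mice (adjusted p = 0.0276) and was at 0.28 (adjusted p = 0.216) in mice labelled KO. The WT call was lost without 38M, 43M, 57F, 59F, 61F or 73F (values from -0.47 to -0.34).

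Fringe and O-glycosylation enzymes, which add sugars to the receptors and change which ligands they favour, counted 1 rise and 4 falls among 7 genes in WT mice, and 2 and 2 in mice labelled KO. Rfng rose by 0.48 and 0.57 in the genotypes (adjusted p = 9.57e-05 and 1.24e-05). Poglut3 fell by 1.28 in WT mice and by 0.74 in mice labelled KO (adjusted p = 0.000406 and 0.0278), the latter by 1.41 without mouse 54F, and the latter call was lost without 52F, 66F or 72M (values from -0.68 to -0.60). Mfng, at under 2 cpm in every mouse, changed by -1.03 in WT mice and 1.01 in mice labelled KO (adjusted p = 0.0288 and 0.0299). The WT call was lost without 43M, 51F, 57M, 61F or 71M (values from -0.96 to -0.73) and the other without 52M, 58M, 60F, 66F, 69F or 72M (0.83 to 0.96).

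Lfng, the Fringe enzyme best known from Notch signalling, was the pathway gene called for a different UV response between genotypes. Of all genes tested, 0.765% were called for such a difference. In WT mice the control males had 10.2, 4.64, 5.14 and 7.07 cpm and the control females 8.73, 7.22, 4.59 and 7.74 cpm, whereas UV males had 3.36, 2.58, 4.10 and 3.24 cpm and UV females 2.14, 2.54, 2.90 and 4.799 cpm. WT control and UV mice overlapped through a single UV female, and Lfng fell by 1.11 on the log2 scale (SE 0.20, adjusted p = 1.63e-05). In mice labelled KO the control males had 4.88, 3.19, 4.22 and 3.70 cpm and the control females 7.12, 4.65, 6.88 and 6.17 cpm, and the UV males had 4.06, 2.38, 3.43 and 4.54 cpm and the UV females 5.87, 11.2, 7.31 and 5.51 cpm. These overlapped, with a log2 fold change of 0.06 (SE 0.20, adjusted p = 0.793), and in both treatments the females labelled KO were mostly above the males. The difference in response was 1.17 (SE 0.28, adjusted p = 0.0401). The highest value, 11.2 cpm, was that of mouse 54F, whose library held dermal markers, and without it the difference was 1.01 (adjusted p = 0.0654). It was also lost on leaving out each of 22 other mice, with adjusted p up to 0.0862.

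**Figure D5:**
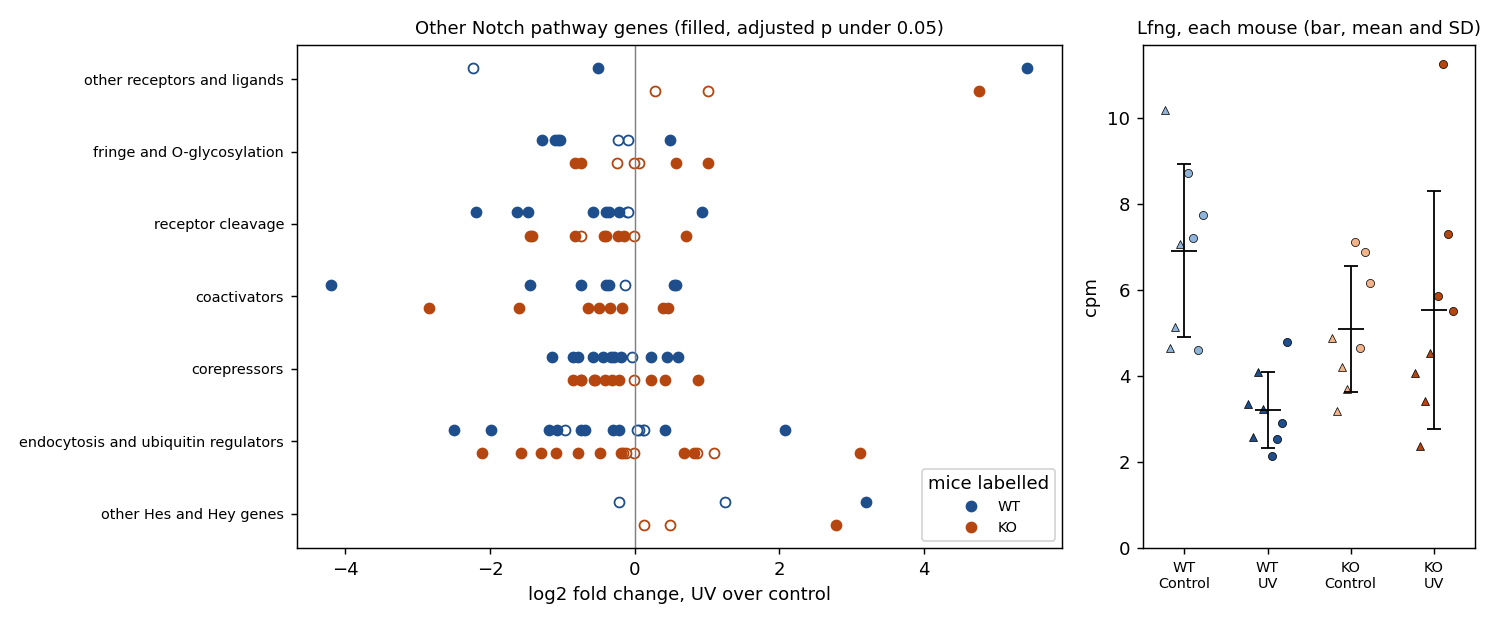
Left, log2 fold change of UV over control for the 58 other pathway genes tested, by role, in WT mice and mice labelled KO, filled where the adjusted p was under 0.05. Right, Lfng in cpm in each of the 32 mice (triangles male, circles female, bar mean and SD); WT UV mice lie between 2.14 and 4.799 cpm and UV mice labelled KO between 2.38 and 11.2 cpm.

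Of 10 genes of receptor cleavage, 1 rose and 7 fell in each genotype. Furin, the protease that cuts the receptor during its maturation, rose by 0.92 and 0.71 (adjusted p = 1.65e-12 and 3.75e-10). Psen2, a catalytic presenilin of γ-secretase, fell by 2.20 and 1.42 (adjusted p = 6.25e-11 and 1.25e-07), from 5.75–8.37 cpm to 0.764–2.11 cpm in WT mice.

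Coactivators counted 2 rises and 5 falls among 8 genes in WT mice, and 2 and 6 in mice labelled KO. The Mastermind genes did not all move the same way. Maml1 rose by 0.58 and 0.46 (adjusted p = 1.13e-07 and 3.74e-06), and Maml2 fell by 4.19 and 2.84 (adjusted p = 1.46e-11 and 8.24e-09). Maml3, the remaining Mastermind gene, was also lower after UV. It went from 56.7–78.4 cpm to 21.6–30.5 cpm in WT mice and from 57.6–86.3 cpm to 15.5–30.5 cpm in mice labelled KO.

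Of 12 corepressor genes, 3 rose and 8 fell in each genotype. Ctbp2 rose by 0.60 and 0.88 (adjusted p = 0.000745 and 7.61e-06), and Tle2, of the Groucho family that HES proteins recruit, fell by 1.14 and 0.57 (adjusted p = 7.91e-05 and 0.029). The fall of Tle2 in mice labelled KO was lost without 44F, 52F, 59M, 66F or 72M (values from -0.53 to -0.44).

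Regulators by endocytosis and ubiquitin, 15 of 16 tested, counted 2 rises and 8 falls in WT mice, and 3 and 7 in mice labelled KO. Dtx1, a Deltex ubiquitin ligase, rose by 2.08 and 3.11 (adjusted p = 0.000397 and 5.53e-06), from 28 reads in all 8 WT controls and 21 in the controls labelled KO. It went from 0–0.225 cpm to 0.253–0.898 cpm in WT mice and from 0–0.224 cpm to 0.209–1.05 cpm with the KO label. Only UV mice labelled KO reached the limit of 1 cpm. Dtx1 thus entered the test through the group where it was highest, so its calls are not independent of that limit. Neurl1b, a Neuralized ubiquitin ligase that acts on ligands, fell to 0.177 and 0.335 of the control level (adjusted p = 4.26e-13 and 2.53e-09).

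Among the other Hes and Hey genes, 3 of 7 reached the limit. Hes7 rose by 3.20 and 2.78 (adjusted p = 1.52e-06 and 1.17e-05), from 0–0.119 cpm to 0.222–1.12 cpm in WT mice and from 15 reads in all 8 WT controls. With the KO label it went from 0–0.286 cpm to 0.295–0.812 cpm. Only WT UV mice reached the limit of 1 cpm. Hes7 thus entered the test through the group where it was highest, so its calls are not independent of that limit.

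After UV, 4 of the 58 pathway genes differed between genotypes, all higher in mice labelled KO: Lfng by 0.69 (adjusted p = 0.0496), Mfng by 1.48 (adjusted p = 0.0461), Psen2 by 0.82 (adjusted p = 0.0207) and Ctbp1 by 0.18 (adjusted p = 0.0469). Over all genes tested 3.31% differed, 2.69% being higher and 0.618% lower in mice labelled KO, so most genes called went the same way. Without mouse 54F none of the 4 passed, with differences of 0.55, 1.40, 0.72 and 0.17 and adjusted p of 0.13, 0.0907, 0.0543 and 0.105. Leaving out each of the 32 mice in turn lost the call of Lfng for 25 of them, of Mfng for 21, of Ctbp1 for 25 and of Psen2 for 3 (54F, 51F and 58M). In controls 0 of the 58 differed (edgeR), and 4 had an unadjusted p under 0.05, which 8.52% of all genes reached.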

How the data were processed

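The authors deposited raw read counts per gene for each of 32 mice, without normalization. Per the labels and the study's methods, single-end stranded mRNA reads were trimmed (cutadapt 1.8), aligned with STAR 2.5.3a and counted with HTSeq 0.9.1 against GRCm38; the methods name a human build, although all identifiers are those of mouse. The strand setting of the counting is not given in the sources used here. GENCODE M21 held 55141 identifiers and gave positions and exon lengths.

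Counts were fitted in edgeR 4.0.16 (R 4.3.3) over all 32 mice with a mean for each of 8 groups, TMM factors, genes of at least 1 cpm in 1 mouse, the quasi-likelihood test and Benjamini-Hochberg adjustment over 15546 genes. Levels are cpm with TMM. The fits were tested on simulated data. Alternatives were RLE factors, DESeq2 1.42.0, limma-trend (limma 3.58.1), filterByExpr, no filter, only the mice concerned, cpm without TMM, and each mouse left out. Members and lists were chosen with earlier results of these data known. All 10 members are named. Of other pathway genes, those named are the largest rise and fall in WT of each role, those called between genotypes, and Maml3. Reads carry no molecular identifiers, so count limits cover counting error only. Nothing states that mice came from separate litters or batches.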

Additional observations from a re-analysis of the deposited data

Results flagged for a closer look

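In 3 of the 80 groups of 4 mice checked over the members, 1 mouse stood apart from the other 3, where chance gives about 1 in 20. Jag1 was at 174.8 cpm in UV male 59M labelled KO, with the nearest mouse of its group at 143.8 cpm. Rbpj was at 37.4 cpm in WT UV female 77F, with the nearest at 22.5 cpm, and at 39.1 cpm in WT control female 63F, with the nearest at 24.9 cpm. Both Rbpj mice were among the 12 with at most 4 Rbpj-ps3 reads. The UV response of Lfng differed between genotypes by 1.17 on the log2 scale.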

How the results depend on the processing

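For the UV response in WT over both sexes, 6 members were called under every alternative run. In mice labelled KO the 6 became 5 with filterByExpr, with no filter and without 52M, 59M, 60F or 66F. DESeq2 called 1 member (Jag2) for the difference in response between genotypes, and the other alternatives 0. By sex, the 6 in WT males ranged from 3 (without 38M) to 6, the 5 in WT females from 4 to 6, the 4 in males labelled KO from 4 to 5 and the 5 in females labelled KO from 4 to 5. Counts over all genes moved by over 1.5 times in the comparisons between genotypes and sexes. The 119 genes with a different response between genotypes became 841 with DESeq2, 55 with no filter and 56 to 346 with a mouse left out. The 32 differing in controls became 78 with DESeq2, 15 with only the mice concerned and 20 to 45 with a mouse left out. The 514 differing after UV became 1116, 260 with limma-trend, 263 with no filter, 40 with only the mice concerned and 133 (without 51F) to 983 (without 59M). For the sexes' responses, DESeq2 called 3 genes in WT and 35 in mice labelled KO, only the mice concerned gave 1 in the latter, and a mouse left out gave 0 to 2.

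Jag1 in mice labelled KO did not pass with filterByExpr (0.24) or with no filter (0.24). The reversed values were all of uncalled changes near zero, and the cause was not tested. Hes1 in WT was 0.0094 with RLE factors and with DESeq2, and Jag2 in mice labelled KO -0.00049 with filterByExpr and -0.00058 with no filter. With a mouse left out, the log2 values ranged from -0.089 to 0.052 for Hes1 in WT, and in mice labelled KO from -0.042 to 0.128 for Jag2, -0.055 to 0.135 for Lfng and -0.051 to 0.0091 for Ctbp1. The difference in response ranged from -0.22 to 0.066 for Rbpj and -0.080 to 0.022 for Nrarp. Lfng's difference in response did not pass with limma-trend (1.12) or no filter (1.11). Dlk2 in WT did not pass with no filter (-0.50). In mice labelled KO, Mfng did not pass with no filter (0.96), and Mfng (1.00), Poglut3 (-0.74) and Tle2 (-0.57) did not with only the mice concerned. Of the genotype differences after UV, Lfng and Ctbp1 did not pass with RLE factors, limma-trend, filterByExpr, no filter or only the mice concerned, Mfng with limma-trend, no filter or only the mice concerned, and Psen2 with only the mice concerned (0.81).

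No paired analysis was possible because the mice carry individual tags that pair none across groups. The 0 to 13 Hey1 reads per library were too few for a test of that gene.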
